A study of Mus musculus with 6 samples.

Results

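The genes described here encode the proteins that cut introns out of pre-mRNA and join exons, and they were taken from poly(A) tail profiles of mouse male germ cells. Members were the annotated transcripts whose gene symbol begins with Hnrnp, Srsf, Sf3a, Sf3b, Snrp or Prpf, ignoring case. The rule gave 100 transcripts of 55 gene symbols, out of 12114 reference sequences with a record in the series, of which 11517 are annotated transcripts and 597 are repeat elements. By family there were 42 hnRNP transcripts of 17 genes, 17 SR transcripts of 9 genes, 3 SF3A transcripts of 3 genes, 8 SF3B transcripts of 6 genes, 16 SNRP transcripts of 11 genes and 14 PRPF transcripts of 9 genes. The annotation classes 89 of them as protein coding, 7 as targets of nonsense-mediated decay and 4 as retaining an intron.

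The study asked how tail length changes as male germ cells pass from meiosis to spermatid differentiation. Both groups came from the testes of adult wild-type males of the C57BL/6J/B6 strain, with no treatment and no transgene, and cells were sorted by DNA content and light scatter. One group is the gate enriched for pachytene and diplotene spermatocytes (P/D spermatocytes), the meiotic cells of the first division, and the other is round spermatids (RS), the haploid cells before elongation. Each group has 3 samples, and each sample is pooled mRNA from 3 mice, read as whole RNA molecules on nanopores so that every read carries its own tail length in nucleotides (nt). The 3 samples of a cell type shared 1 multiplexed sequencing library, so cell type and library cannot be told apart. A gate is an enriched population and not a pure one. By the study's microscopy counts, purity was clearly lower in the P/D gate than in the RS gate, which bears on every comparison between them.

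Samples held 244004 to 474688 reads. The 10 genes listed for elongating spermatids made up 0.321% to 0.402% of annotated reads in P/D samples and 2.64% to 3.20% in RS. The 10 listed for round spermatids made up 0.0778% to 0.0951% and 0.430% to 0.448%. Those of pachytene and diplotene cells made up 0.397% to 0.426% in P/D samples and 0.273% to 0.302% in RS, and those of the earlier leptotene and zygotene cells 0.0456% to 0.0515% and 0.00700% to 0.00829%. Markers of Sertoli cells had 0 to 3 reads in a sample, those of Leydig cells 1 to 7, and those of peritubular cells and macrophages none. The paper states that protamine, transition protein, Smcp and Odf1 mRNAs, which are on the elongating list, are made in RS and translated later. Their reads in RS therefore do not by themselves mark later cells. The part of other stages in the results was not tested.

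Splicing takes place on the spliceosome, which is assembled on each intron from small nuclear ribonucleoproteins (snRNPs), particles of a small nuclear RNA with a ring of Sm proteins and particle-specific subunits. SF3A and SF3B are the protein complexes that tether the U2 snRNP to the branch point, and PRPF proteins build and rearrange the later complexes. SR proteins bind exons and promote their use, whereas hnRNP proteins coat nascent RNA and often oppose them. Many SR and hnRNP genes limit their own output through isoforms that carry a premature stop codon. Testis is known for an unusually rich repertoire of splice isoforms, and the tail that closes an mRNA bears on its translation and lifetime.

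A tail is added downstream of a hexamer near the 3′ end of the RNA, most often AATAAA or its variant ATTAAA. The 30 bases around the hexamer are shown for 7 transcripts whose tails differed between the cell types. Capitals mark the hexamer, letters run 5′ to 3′ on the strand of the transcript, and positions are those of build GRCm38.
Hnrnpu-201 (chr1:178324344-178324373, minus strand, longer tails in RS): atagtttaaaatATTAAAaattgaacttaa
Snrpa1-206 (chr7:66074548-66074577, plus strand, longer tails in RS): tacaaatggtaaAATAAAggcgacttactg
Snrpc-203 (chr17:27851929-27851958, plus strand, longer tails in RS): gtgaaatgtgaaAATAAAgtcatcagctct
Srsf3-202 (chr17:29043337-29043366, plus strand, shorter tails in RS): taaaagattattATTAAAagacactgactt
Hnrnpk-201 (chr13:58391241-58391270, minus strand, shorter tails in RS): aatccacatctaAATAAAacttccatgatg
Hnrnph3-202 (chr10:63014666-63014695, minus strand, shorter tails in RS): tgttattaatgtAATAAAtgtcaacatggg
Snrpb2-201 (chr2:143072818-143072847, plus strand, shorter tails in RS): tacttttttccaAATAAAagtaaaatttat

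Both hexamers occur in both sets. In the last 50 annotated bases, on the transcript strand, AATAAA stood in 60 of the 100 members and ATTAAA without AATAAA in 20, against 61.1% and 14.6% of 11344 annotated transcripts with a sequence. The cytoplasmic polyadenylation element, searched as TTTTAT or TTTTAAT in the last 100 bases, stood in 22.0% of members and 15.5% of all. Among PRPF transcripts it stood in 6 of 14 and among SR transcripts in 2 of 17. Of the members with longer tails in RS 4 of 12 held it, and of those with shorter tails 1 of 7. The windows are those of the annotation, and the ends of the sequenced molecules may lie elsewhere.

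Most splicing-factor transcripts did not pass the test for a tail difference between P/D spermatocytes and RS, and those that passed went both ways. Of 66 members with enough reads, 12 were longer in RS, 7 were shorter and 47 did not pass the test (limma on the sample means, Benjamini-Hochberg adjusted p below 0.05 over all 6990 transcripts tested). Over all transcripts tested, 54.2% were longer and 1.69% were shorter. The median difference, RS minus P/D, was 12.1 nt for the members and 37.4 nt for all, and the difference was above 0 in 65.2% of members and 84.5% of all. The members did not start shorter: their median tail in P/D spermatocytes was 122 nt against 115 nt, whereas in RS it was 135 nt against 159 nt.

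The count of members depends on depth, since a member had a median of 56.5 reads over the 6 samples, with a range from 6 to 824. With each mean weighted by its reads, 15 of 66 members were longer and 9 shorter, beside 57.1% and 2.12% of all, and all 19 calls of the unweighted test were among these 24. Among transcripts with 20 reads or more in all 6 samples, 3 of 11 members were longer and 1 was shorter, beside 87.1% and 2.46% of 1827 transcripts. Without a test, all 3 RS means lay above all 3 P/D means in 15 of the 62 members measured in every sample and below them in 9, beside 63.6% and 2.72% of all. Per the study's methods every mouse was sorted in a session of its own and the pools of a group hold different mice. Within a group, p-values thus measure the spread between pools of separate animals. Each animal gave both P/D and RS cells, so the groups share donors, and the main fit takes no account of this.

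**Figure D1:**
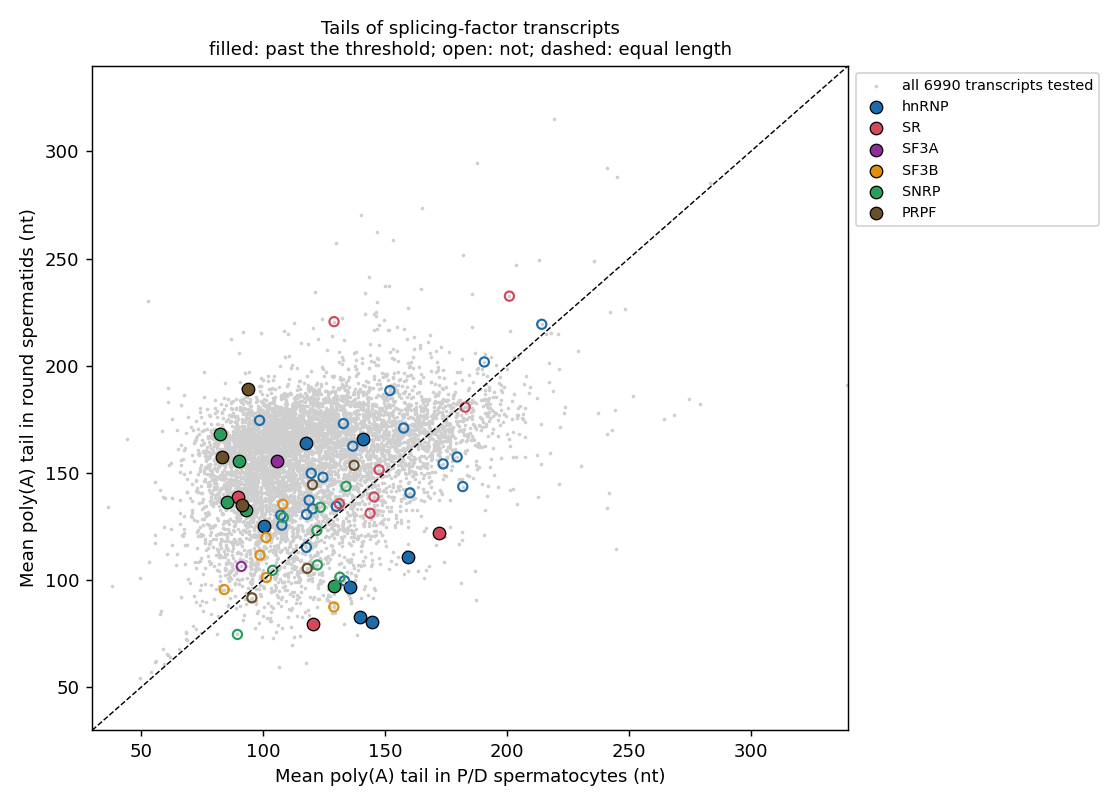
Mean poly(A) tail (nt) in P/D spermatocytes (horizontal) and round spermatids (vertical), each point 1 transcript and the mean of its samples. Grey points are the 6990 transcripts tested, coloured points the 66 splicing-factor transcripts, filled where they passed the limma test. Most grey points lie above the dashed line of equal length, whereas 23 of the 66 members lie on or below it.

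The snRNP proteins held 4 of the 12 members with longer tails. Of 13 SNRP transcripts tested, 4 were longer and 1 shorter, beside 54.2% and 1.69% of all transcripts tested, with a median difference of 9.69 nt. Snrpd2-201, which encodes an Sm protein of the ring shared by most spliceosomal snRNPs, had mean tails of 91.1, 86.2 and 92.8 nt in the P/D samples and 148, 159 and 159 nt in the RS samples. The groups stood far apart, with a difference of 65.6 nt (SE 6.04, limma adjusted p = 0.000501) on 114 to 178 reads a sample. Snrpa1-206, for a subunit of the U2 snRNP, went from 72.4, 104 and 70.4 nt to 174, 165 and 166 nt, a difference of 85.7 nt (SE 10.5, limma adjusted p = 0.000974).

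Snrpc encodes a U1-specific protein that helps the particle bind the 5′ splice site, and both of its tested isoforms were longer. Snrpc-203 measured 79.6, 91.0 and 85.0 nt in P/D samples and 141, 141 and 128 nt in RS, a difference of 51.4 nt (SE 6.73, limma adjusted p = 0.00121). Snrpc-201, which shares the hexamer shown above, differed by 39.7 nt (SE 6.29, limma adjusted p = 0.00250). Snrpb2-201, for a U2-specific protein, moved the other way. Its tails were 121, 126 and 141 nt in P/D samples and 102, 96.5 and 93.4 nt in RS, without overlap and 31.9 nt shorter (SE 7.25, limma adjusted p = 0.0107). Subunits of the U2 particle thus had opposite calls, with Snrpa1 longer and Snrpb2 shorter.

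The other Sm transcripts did not pass the test. Snrpf-201 and Snrpg-201 differed by 0.614 and 1.06 nt (SE 6.83 and 6.91). Snrpd3-201 held 136, 132 and 127 nt in P/D samples and 76.3, 93.1 and 135 nt in RS, where the samples scattered widely (difference -30.2 nt, SE 15.1, limma adjusted p = 0.139). With means weighted by reads the Snrpd3-201 difference was -30.9 nt (limma adjusted p = 0.0129).

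Few SF3A and SF3B transcripts could be tested. Of 2 SF3A transcripts tested 1 was longer, and of 6 SF3B transcripts none was called, with a median difference of 12.2 nt. Beside them, 54.2% of all transcripts tested were longer and 1.69% shorter. Sf3a1-201, the largest SF3A subunit, went from 125, 106 and 86.1 nt to 157, 140 and 169 nt, 49.8 nt longer without overlap (SE 12.3, limma adjusted p = 0.0146). Sf3a3-201 measured 89.2, 103 and 81.0 nt and then 110, 103 and 107 nt, which did not pass (difference 15.3 nt, SE 7.45, limma adjusted p = 0.130).

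Sf3b5-201, a small SF3B subunit with 19 to 50 reads a sample, had nearly the same mean in both cell types. It measured 102, 104 and 98.7 nt in P/D samples and 109, 86.0 and 109 nt in RS (difference -0.215 nt, SE 8.05). Sf3b2-201 had 97.1, 103 and 96.1 nt and then 110, 127 and 98.1 nt (difference 12.9 nt, SE 8.73, limma adjusted p = 0.258). Sf3b1-201, the subunit that clamps the branch point, differed by 27.2 nt (SE 9.67, limma adjusted p = 0.0528), and by 22.8 nt with means weighted by reads (limma adjusted p = 0.0314).

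Of the 7 PRPF transcripts tested, 3 were longer and none shorter, with a median difference of 24.3 nt. Over all transcripts tested 54.2% were longer and 1.69% shorter. Prpf31-201, a tri-snRNP protein, had the widest gap of all members tested for tails. Its tails were 106, 74.9 and 101 nt in P/D samples and 176, 167 and 224 nt in RS, 95.2 nt longer (SE 16.9, limma adjusted p = 0.00402), on only 3 to 11 reads a sample. Prpf38a-201, a factor of the activating spliceosome, went from 94.2, 84.5 and 95.8 nt to 136, 118 and 151 nt, 43.6 nt longer without overlap (SE 9.66, limma adjusted p = 0.00964).

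Called SR transcripts went both ways. Of 10 tested, 1 was longer and 2 were shorter, beside 54.2% and 1.69% of all transcripts tested, with a median difference of 0.827 nt. Srsf3-202, for the smallest SR protein, measured 121, 128 and 113 nt in P/D samples and 96.2, 79.0 and 63.1 nt in RS. The RS samples all lay below, 41.3 nt shorter on average (SE 9.82, limma adjusted p = 0.0127). Srsf5-205 went from 170, 152 and 195 nt to 122, 114 and 130 nt, a difference of -49.98 nt (SE 11.9, limma adjusted p = 0.0128). That call was lost when only tails of 10 to 300 nt were averaged (-34.2 nt, limma adjusted p = 0.0805), and Srsf5-201 of the same gene differed by -6.72 nt (SE 12.2) and was not called.

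Srsf10-205, for an SR protein that represses splicing when dephosphorylated, was the single longer one. It held 73.1, 115 and 80.9 nt and then 165, 134 and 118 nt, 49.3 nt apart (SE 15.97, limma adjusted p = 0.0392). It was lost when any of 4 samples was left out (P/D 1 or 3, RS 1 or 2), with differences of 41.1, 44.9, 36.5 and 51.9 nt, and in the fit blocked on replicate number (limma adjusted p = 0.0673). Srsf2-201, a founding SR protein gene, showed 172, 125 and 146 nt in P/D samples and 162, 148 and 145 nt in RS (difference 3.87 nt, SE 12.8), with the groups intermingled.

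The hnRNP family split, with 3 of 28 tested transcripts longer, 4 shorter and a median difference of 12.8 nt. The shares over all transcripts tested were 54.2% longer and 1.69% shorter. Hnrnpu-201, for a protein that ties RNA to chromatin, rose from 111, 128 and 115 nt to 159, 165 and 168 nt, 46.2 nt longer without overlap (SE 6.92, limma adjusted p = 0.00200). Hnrnpab-201 differed by 24.8 nt (SE 5.61, limma adjusted p = 0.0104). Hnrnpll-205, of a gene known for control of exon choice in lymphocytes, differed by 24.9 nt (SE 8.33, limma adjusted p = 0.0441), a call lost without P/D 1, P/D 3, RS 1 or RS 2, with differences of 26.9, 19.4, 20.5 and 23.5 nt.

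The 4 shorter hnRNP transcripts came from 4 genes. Hnrnpk-201, for a KH-domain protein that binds C-rich RNA, had 126, 145 and 136 nt in P/D samples and 109, 90.5 and 90.4 nt in RS, 39.3 nt shorter (SE 8.38, limma adjusted p = 0.00829). Hnrnpa3-204 had 138, 147 and 135 nt and then 78.1, 72.2 and 98.8 nt, 56.9 nt shorter (SE 8.74, limma adjusted p = 0.00221), a call lost with median in place of mean tails (-37.2 nt, limma adjusted p = 0.119). Hnrnpa2b1-209, an isoform annotated as a target of nonsense-mediated decay, was 48.6 nt shorter (SE 8.87, limma adjusted p = 0.00445), a call lost with medians (limma adjusted p = 0.0508) and on the log2 scale (limma adjusted p = 0.108). In each of these 3 every RS sample lay below every P/D sample.

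Hnrnph3, of the G-rich-binding H/F group, had isoforms with opposite values. Hnrnph3-202 fell from 133, 162 and 139 nt to 82.7, 78.9 and 80.1 nt, 64.0 nt shorter (SE 8.82, limma adjusted p = 0.00146), on 4 to 20 reads a sample. Hnrnph3-203 held 99.8, 73.1 and 123 nt and then 153, 133 and 238 nt, 75.9 nt apart the other way (SE 29.1), which did not pass (limma adjusted p = 0.0671, and 0.0165 with means weighted by reads). The difference between these isoforms was not tested. Hnrnpf-201, the hnRNP transcript with most reads, had 134, 103 and 120 nt and then 131, 134 and 148 nt (difference 18.4 nt, SE 9.80, limma adjusted p = 0.160).

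**Figure D2:**
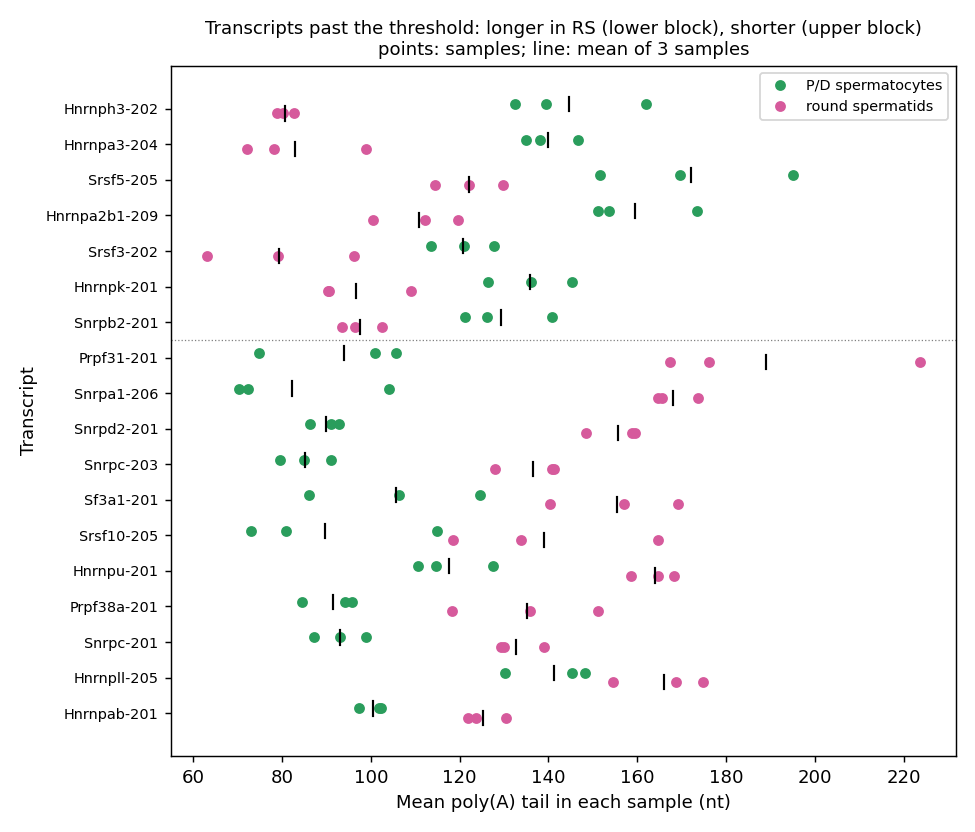
Mean poly(A) tail (nt, horizontal) in each of the 3 P/D (green) and 3 round spermatid (pink) samples of transcripts that passed the limma test, with a line at the mean of each group. Longer transcripts fill the lower block, 11 of the 12, and the 7 shorter ones the upper block, and in each the samples of the cell types do not overlap.

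Since reads of like isoforms can be split among transcripts, tails were also averaged over all reads of a gene. Of 48 genes tested, 9 were longer in RS and 8 shorter, beside 54.9% and 2.14% of 5370 genes. Among the longer were Hnrnpu, Srsf10, Sf3a1, Snrpa1, Snrpc, Snrpd2, Prpf31 and Prpf38a. The 8 shorter were Hnrnpa2b1, Hnrnpa3, Hnrnpk, Srsf11, Srsf3, Srsf5, Snrpb2 and Prpf8. The Srsf5 call (-27.2 nt) was lost without P/D 1, P/D 3, RS 2 or RS 3, at -25.9, -23.7, -19.1 and -30.2 nt, and with medians (limma adjusted p = 0.0699). The Srsf11 and Hnrnpa2b1 calls were lost with medians (limma adjusted p = 0.115 and 0.0528). The Hnrnpa2b1 mean also mixes isoforms whose shares differed, since Hnrnpa2b1-209 held 11.8% of its reads in P/D samples and 62.3% in RS. Of its other tested isoforms, Hnrnpa2b1-204 differed by 25.7 nt and Hnrnpa2b1-210 by -19.6 nt, neither of them called. The Srsf10 call (44.3 nt) was lost in the fit blocked on replicate number (limma adjusted p = 0.0537) and without P/D 1, P/D 3, RS 1 or RS 2, at 37.4, 39.5, 35.05 and 46.2 nt. Prpf8 encodes the protein at the catalytic centre of the spliceosome, and its tails went from 121, 133 and 118 nt to 73.4, 60.8 and 81.1 nt, 52.3 nt shorter, although RS samples held only 3 to 5 of its reads.

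Tails can also be counted read by read. Reads with tails of 120 to 210 nt, the long class of the study's methods, went in share from 29.5% ± 0.94 (SD, n = 3) in P/D samples to 67.5% ± 0.99 in RS for all other transcripts. For the members the share was 33.5% ± 0.74 and then 45.8% ± 2.59. SNRP reads went from 31.9% ± 2.11 to 51.4% ± 1.74, PRPF reads from 30.3% ± 5.82 to 50.01% ± 9.22, SF3A reads from 18.3% ± 1.45 to 38.9% ± 6.86 and hnRNP reads from 37.3% ± 2.59 to 48.6% ± 6.04. SR reads had lower shares in RS, 34.1% ± 2.25 and then 30.2% ± 1.03, as had SF3B reads, 30.5% ± 2.07 and then 26.2% ± 2.62. Shares of this class and mean tails did not always move together. The mean tail of SF3B reads was 104 nt ± 2.30 in P/D samples and 111 nt ± 1.05 in RS. That of SR reads was 146 nt ± 3.17 and then 138 nt ± 5.05, and that of hnRNP reads 138 nt ± 4.71 and then 138 nt ± 8.46. These shares and means carry no test.

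Tails of 210 nt or more were frequent among SR and hnRNP reads of P/D spermatocytes, at 21.1% ± 1.93 and 16.6% ± 1.41, against 6.34% ± 0.40 of other reads. In RS they made up 20.7% ± 2.70 of SR reads, 9.69% ± 3.32 of hnRNP reads and 9.94% ± 0.78 of other reads. By isoform class, reads of members annotated as decay targets held 40.8% ± 12.2 such tails in P/D spermatocytes and 22.4% ± 2.72 in RS, and reads of intron-retaining members 22.8% ± 4.29 and 11.7% ± 2.42. The decay-target class rests on about 35 reads a sample.

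**Figure D3:**
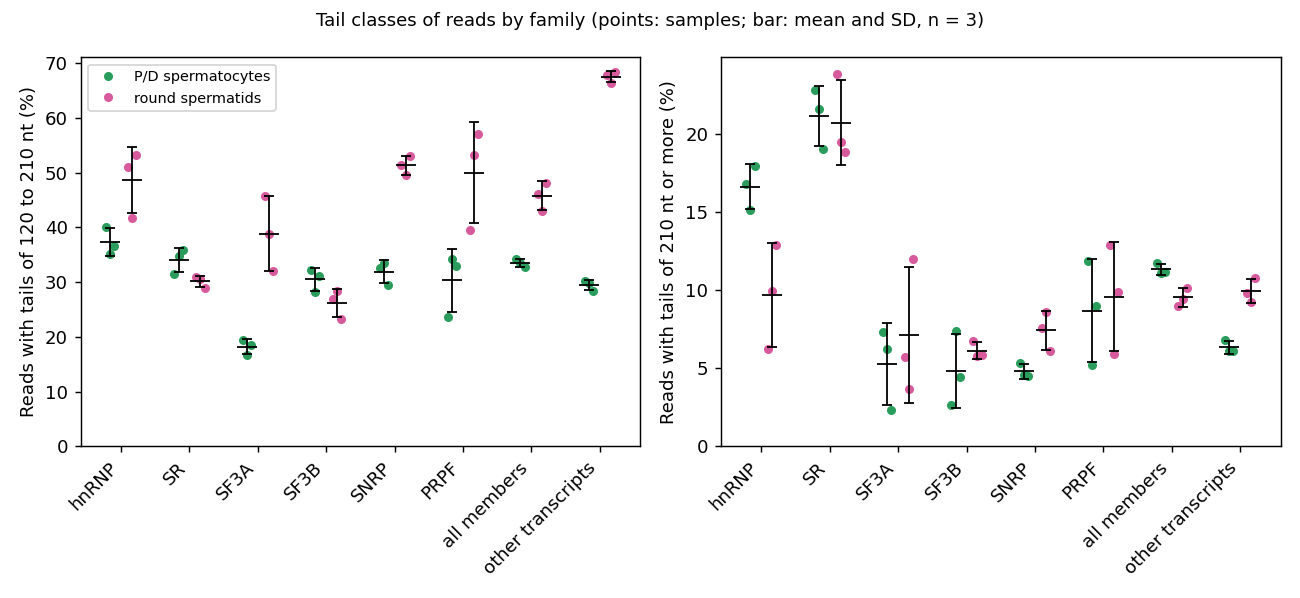
Share of reads (%) with tails of 120 to 210 nt (left) and of 210 nt or more (right) in each sample, by family, for P/D spermatocytes (green) and round spermatids (pink), with the mean and SD of 3 samples. On the left other transcripts go from 29.5% to 67.5%, whereas SR and SF3B reads have lower mean shares in RS. On the right SR reads are at 21.1% in P/D spermatocytes and 20.7% in RS.

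Accumulation was lower in RS for 31 of the 58 splicing-factor transcripts tested. Accumulation here is a transcript's share of the counts of its sample, so fewer cells of a type and less RNA per cell cannot be told apart. Members made up 0.680% ± 0.016 of annotated reads in P/D samples and 0.396% ± 0.015 in RS (SD, n = 3). Of 58 members tested with edgeR's quasi-likelihood test, 31 were lower in RS, 1 was higher and 26 did not pass, beside 30.8% lower and 32.6% higher of 6005 transcripts. The count filter can be passed on reads of 1 cell type alone, for members as for all transcripts. With at least 10 counts in every sample 9 members were lower, and no share over all transcripts is given for that setting. The median log2 fold change, RS over P/D, was -0.81 for members and -0.03 for all, and 49 of 58 members were below 0.

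By family, 10 of 20 hnRNP, 7 of 10 SR, 1 of 2 SF3A, 4 of 6 SF3B, 7 of 13 SNRP and 2 of 7 PRPF transcripts were lower. The share over all transcripts tested was 30.8%. Snrpb-201, for the Sm protein that is a target of autoantibodies in lupus, had 36, 37 and 37 counts in P/D samples and 1, 2 and 5 in RS, a log2 fold change of -4.15 (SE 0.39, edgeR adjusted p = 2.71e-12). Snrpd3-201, for another Sm protein, had 63, 60 and 66 counts and then 13, 22 and 14, a log2 fold change of -2.39 (SE 0.23, edgeR adjusted p = 8.20e-12). Snrpd2-201 of the same ring did not pass, with 118, 114 and 145 and then 116, 178 and 153 counts (log2 fold change -0.20, SE 0.14, edgeR adjusted p = 0.229).

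Among hnRNP transcripts the lower ones included Hnrnpa0, Hnrnpa2b1 and Hnrnpm isoforms, whereas Hnrnpa3-204 did not pass (log2 fold change 0.05, SE 0.32). Hnrnpa0-201 had 56, 54 and 38 counts in P/D samples and 5, 11 and 6 in RS, a log2 fold change of -3.17 (SE 0.29, edgeR adjusted p = 1.95e-12). Hnrnpa2b1-210 went from 35, 33 and 20 counts to 4, 2 and 0, a log2 fold change of -4.22 (SE 0.46, edgeR adjusted p = 1.47e-10). Hnrnpm-206 fell by 2.90 on the log2 scale (SE 0.38, edgeR adjusted p = 1.18e-08). Groups did not overlap in any of the 3.

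Among SR transcripts Srsf3-202 had 58, 65 and 65 counts and then 23, 22 and 20, a log2 fold change of -1.96 (SE 0.22, edgeR adjusted p = 3.83e-10). Srsf9-201 went from 12, 15 and 11 counts to 1, 0 and 3, a fall of the same kind (log2 fold change -3.55, SE 0.54, edgeR adjusted p = 2.26e-07). Srsf2-201 was also lower (log2 fold change -0.94, SE 0.31, edgeR adjusted p = 0.00858), a call lost with DESeq2 (adjusted p = 0.0676) and without P/D 3 or RS 2, at -0.77 and -0.66.

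Among SF3B transcripts Sf3b6-201, whose product sits at the branch-point adenosine, went from 19, 20 and 16 counts to 0, 4 and 1 (log2 fold change -3.79, SE 0.48, edgeR adjusted p = 5.35e-09). Sf3b5-201 had 45, 50 and 48 counts and then 23, 29 and 19, a log2 fold change of -1.44 (SE 0.23, edgeR adjusted p = 4.59e-07), and Sf3b2-201 fell by 1.06 on the log2 scale (SE 0.21, edgeR adjusted p = 2.33e-05). Sf3a1-201 fell by 0.83 (SE 0.34, edgeR adjusted p = 0.0310), a call lost with DESeq2 (adjusted p = 0.159) and without P/D 2, P/D 3 or RS 3, at -0.84, -0.80 and -0.52. Prpf19-201, for the ubiquitin ligase of the Prp19 complex, went from 10, 13 and 14 counts to 2, 2 and 0, a log2 fold change of -3.51 (SE 0.53, edgeR adjusted p = 2.01e-07).

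The single higher transcript was Hnrnpf-202, with 7, 15 and 8 counts in P/D samples and 17, 35 and 30 in RS, a log2 fold change of 1.01 (SE 0.32, edgeR adjusted p = 0.00628). Hnrnpf-201 of the same gene was lower by a small margin, -0.41 (SE 0.18, edgeR adjusted p = 0.0473), a call lost with DESeq2 (adjusted p = 0.212) and without P/D 2, P/D 3, RS 1 or RS 3, at -0.37, -0.40, -0.38 and -0.24. Summed over isoforms, Hnrnpf did not pass the test. Of 46 genes tested on summed counts, 29 were lower and 1 was higher, beside 32.6% and 33.9% of 4940 genes, and the higher one was Hnrnpab, with a log2 fold change of 0.80.

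**Figure D4:**
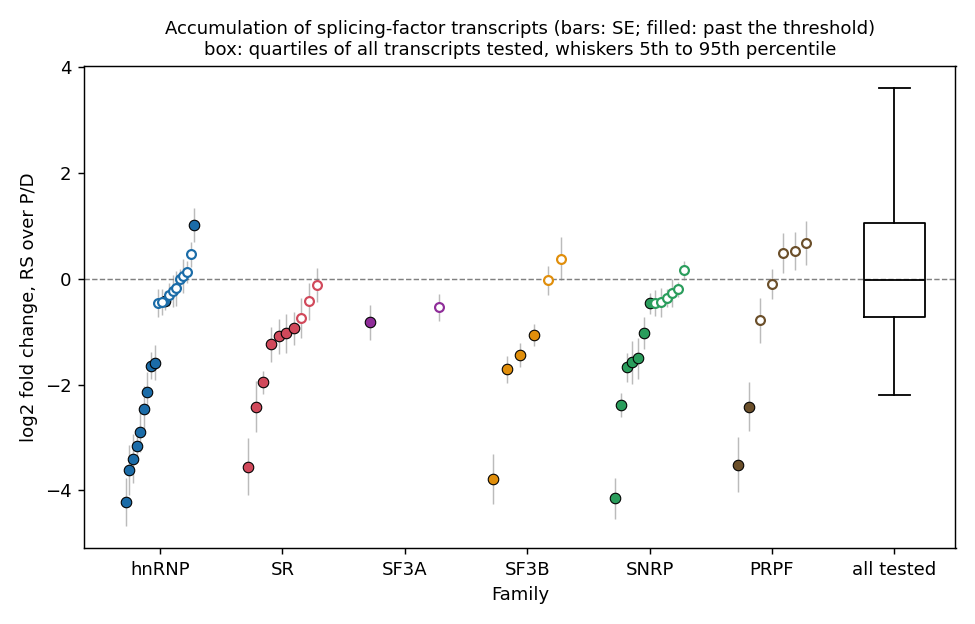
Accumulation as log2 fold change, RS over P/D, of the 58 tested splicing-factor transcripts by family (bars: SE), filled where they passed the edgeR test, beside a box of the quartiles of all 6005 transcripts tested with whiskers at the 5th and 95th percentiles. Of the filled points, 31 lie below 0 and 1, Hnrnpf-202, above.

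Isoforms could be compared within a gene for 23 members of 10 genes. The share of Hnrnpf-202 among Hnrnpf reads was 5.83%, 7.54% and 5.33% in P/D samples and 10.1%, 13.2% and 18.8% in RS, without overlap. Relative to the other Hnrnpf isoforms it was 1.10 higher on the log2 scale (edgeR adjusted p = 0.0186), the 1 call among the 23, beside 7.05% of 2467 transcripts. Leaving out 1 sample gave 0 to 6 calls, with 0 when RS 2 was left out and 6 when RS 1 was. Hnrnpa2b1-209 was not in this test, although its share of Hnrnpa2b1 reads differed more. The mean share was 11.8% in P/D samples and 62.3% in RS, without overlap, on 5 to 17 reads a sample. Hnrnpa2b1-210 went from 44.3% to 12.2% and was not called in the test, which compared it without Hnrnpa2b1-209. Nanopore reads start at the 3′ end, and isoforms that differ at the 5′ end are told apart only by reads that reach it.

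Tail and accumulation changes could be set side by side for 57 members. Of the 30 with lower accumulation, 4 had shorter tails, 2 had longer tails and 24 were not called for tails. Srsf3-202, Srsf5-205, Hnrnpk-201 and Hnrnph3-202 were lower in both, whereas Snrpa1-206 and Sf3a1-201 had longer tails and lower accumulation. Of the 12 with longer tails, 10 were not called for accumulation. Spearman's rho between the differences was 0.256 over the 57 members and -0.260 over 5916 transcripts, given as a description, since the points share libraries and many rest on few reads.

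**Figure D5:**
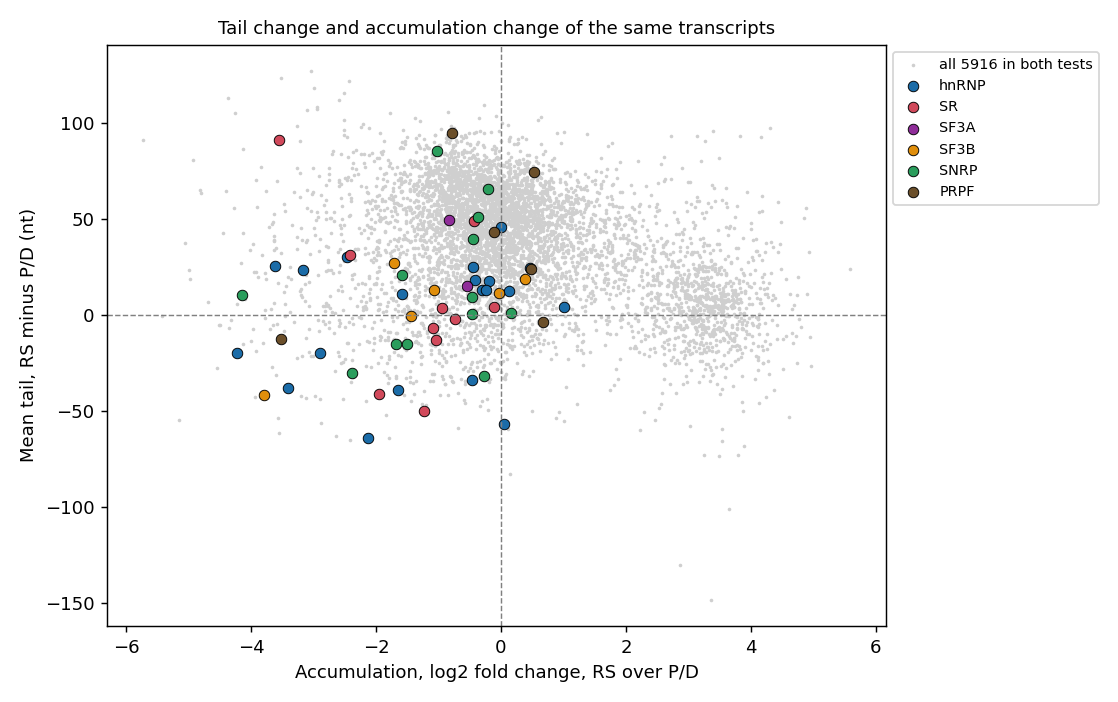
Difference in mean tail (nt, RS minus P/D, vertical) against the log2 fold change in accumulation (RS over P/D, horizontal) of the 57 members in both tests, coloured by family over 5916 transcripts in grey. Most coloured points lie left of the vertical line, many of them near or below a tail difference of 0.

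Members with few reads were not tested. For tails these were 34 transcripts with 6 to 57 reads in all, of which 15 had a higher and 17 a lower mean in RS and 2 were read in 1 cell type only, Hnrnpa2b1-203 in P/D samples (11, 12 and 7 reads) and Hnrnpu-206 in RS (3, 1 and 2 reads). For accumulation they were 42 transcripts with 6 to 67 reads, of which 31 had lower and 11 higher CPM (counts scaled to library size) in RS. In all, 33 members entered neither test.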

How the data were processed

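Direct RNA reads came from 3 P/D spermatocyte and 3 RS samples, and groups were taken from the sample labels. The authors aligned reads to the mouse transcriptome (submitters' notes: minimap2 2.20-r1061, SAMtools, build mm10), estimated each tail with Nanopolish and deposited tail lengths per read in nt and a table of raw counts per transcript. Values are not normalized.

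Mean tails per transcript and sample were compared with limma 3.58.1 in R 4.3.3, over annotated transcripts that reached 10 reads in 2 or more samples of 1 cell type. Counts were tested with edgeR 4.0.16 (TMM, filterByExpr, quasi-likelihood) and isoforms with diffSpliceDGE, all with Benjamini-Hochberg adjustment at 0.05. Fits ran over the whole table. On simulated data with the noise of these replicates, unadjusted p below 0.05 came too often in the unweighted tail test for unchanged transcripts with few reads and too rarely for those with many, and near the nominal rate with weights by reads. Weights also recovered more of the small simulated differences. The simulation gave every transcript the same rule for noise, a constant plus a term that falls with reads. That form is close to what weights by reads assume. It therefore cannot show how the weights behave where transcripts differ in their own spread. The unweighted test was kept as the main one because it had been set as such, and weighted counts stand beside it. A missing tail call is thus no evidence of equal tails. Depth ranged from 244004 to 474688 reads a sample.

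Members and lists were chosen with earlier results of these data known. Named by rule were the 2 transcripts with most reads per family, the largest called tail changes backed by 20 reads or more in all samples, the largest called count changes backed by 50 reads or more in all samples of the higher cell type, and the lowest p in isoform usage. Other names were chosen after their values were seen. Exons, ends and classes are those of GENCODE on build GRCm38, in which all 100 members were found with the same symbol, and 10 of 10036 member read records lay on several transcripts. Left out was 1 transcript that GENCODE assigns to these families and that has no symbol in the deposited table. Alternatives covered filters, scale, weights, normalization, DESeq2 1.42.0, the replicate block and leaving out each sample. Values of 1 member gene are not reported here by name, and the counts include it.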

Additional observations from a re-analysis of the deposited data

How the results depend on the processing

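With at least 20 reads in every sample, longer members went from 12 to 3 and shorter ones from 7 to 1, of 11 tested. The shares over all 1827 transcripts that passed this filter were 87.1% and 2.46%. On the log2 scale 19 were longer. Lower accumulation went from 31 to 9 members with at least 10 counts in every sample (28 tested), and without a filter 2 were higher. Isoform usage gave 4 calls without a filter. Among other splicing genes, shorter tails went from 2 to 0 with the replicate block, and higher accumulation from 7 to 4 with DESeq2. The cause was not tested beyond the fewer transcripts that a filter leaves. A minimum in every sample also leaves out transcripts that fall to few counts in RS. Apart from the filter of 20 reads, the counts in this section have no share over all transcripts beside them. They therefore cannot show whether members differ from the rest under those settings.

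The RS minus P/D share of reads with 120 to 210 nt tails, 12.3 percentage points for all members, was 9.55 with 120 to 180 nt and 6.84 with equal weight of transcripts. For SR reads -3.93 became -1.14 and -7.003, and for SNRP reads 19.4 became 14.8 and 8.83.

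Leaving out each sample gave 11 to 13 longer and 6 to 8 shorter members, 30 to 40 lower and 1 to 3 higher in accumulation, 1 to 2 higher genes, and 0 to 6 usage calls.

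The study isolated both cell types from the same mice, but does not say whether same-numbered pools hold the same animals. Deviations from the group means correlated between same-numbered samples at 0.0278, 0.237 and 0.0690 in counts and at -0.0106, 0.0771 and 0.0157 in tails. These correlations cannot show whether the pools are paired. With the replicate block 14 members were longer, 8 shorter, 32 lower and 1 higher, and 1 of the 19 tail calls, Srsf10-205, was lost.

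Some values near 0 changed sign. For Hnrnpu-201 accumulation (log2) they were 0.0531 with DESeq2, 0.0529 with its size factors, 0.19 with at least 10 counts, 0.00138 with reads on 1 transcript, and between -0.12 and 0.16 when each sample was left out. For Prpf38a-201 they were 0.0861 with at least 10 counts and between -0.30 and 0.0769 when each sample was left out. For Srsf2-201 tails they were -4.05 nt with tails of 10 to 300 nt and between -7.42 and 16.1 nt when each sample was left out. For Sf3b5-201 tails they were 10.5 nt for medians, 0.16 on the log2 scale, 1.25 nt with tails of 10 to 300 nt, and between -4.07 and 7.38 nt when each sample was left out. No called member changed sign under any alternative.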

Other observations

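Other splicing genes, in 6 lists outside the families above, held 153 transcripts. Of 98 tested for tails, 35 were longer in RS and 2 shorter, with a median difference of 16.9 nt, beside 54.2% longer, 1.69% shorter and 37.4 nt over all transcripts tested. Of 81 tested for accumulation 7 were higher and 37 lower, with a median log2 fold change of -0.44, beside 32.6% higher, 30.8% lower and -0.03 over all. The kinases that phosphorylate SR proteins and the importins that carry them to the nucleus had 6 of 9 longer and a median difference of 41.3 nt, near the values over all transcripts. Srpk1-204, an SR protein kinase, went from 115, 100 and 115 nt in P/D samples to 172, 177 and 183 nt in RS, 67.1 nt longer (SE 6.99, limma adjusted p = 0.000623), and its accumulation did not pass the test (log2 fold change -0.05, SE 0.20). Srpk2-201 rose in accumulation, from 11, 20 and 12 counts to 38, 51 and 41 (log2 fold change 1.16, SE 0.26, edgeR adjusted p = 0.000164).

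The Prp19 complex with catalytic and release factors had 9 of 16 longer and none shorter, with a median difference of 36.2 nt, also near the values over all transcripts. Snw1-201, a factor of the catalytic spliceosome, went from 70.6, 58.3 and 70.7 nt to 130, 145 and 186 nt, 87.3 nt longer (SE 14.8, limma adjusted p = 0.00334). Other lists had fewer calls. U2 factors had 5 of 11 longer, U1, tri-snRNP and Lsm genes 6 longer and 1 shorter of 23, exon junction and SR-related genes 4 of 16 longer, and other regulators of exon choice 5 longer and 1 shorter of 23. The shorter ones were Smu1-201, by 33.4 nt (SE 11.2, limma adjusted p = 0.0435), and Elavl1-201, by 37.4 nt (SE 10.8, limma adjusted p = 0.0260).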
